A study of Mus musculus with 20 samples.

Results

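The genes described here are 39 immediate early and heat shock genes of the mouse, chosen by symbol and followed across 5 populations of tissue macrophages. All 39 were found among the 24421 genes of the deposited count files, and all 39 were among the 13960 genes with enough counts to be tested. They were kept in 6 parts: 8 genes of the AP-1 group, 3 Egr genes, 3 Nr4a genes, 9 feedback regulators, 9 other early genes and 7 heat shock genes. Total RNA was sequenced from C57BL/6JRj mice, with 4 libraries in each population. The populations were microglia, peritoneal macrophages, macrophages of the choroid plexus and macrophages of the dura, the last split into MHC II-high and MHC II-low. The titles of the MHC II-low dura libraries call them intermediate and their cell type label calls them low. No treatment, genotype or age is given for any group, and the labels do not say how the cells were isolated or handled, so population and cell handling cannot be told apart. Whether the replicates of a population came from separate animals is not stated either, so the p-values measure the spread between these libraries, which may be technical.

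Immediate early genes are transcribed within minutes of a stimulus, without new protein synthesis. Signals such as growth factors, calcium, cytokines or mechanical stress reach their promoters through kinases that act on factors already bound there, among them serum response factor, which binds the CArG box, and CREB, which binds the cAMP response element (CRE). Many of the products are transcription factors of the AP-1, Egr and Nr4a families, and others end the response by removing phosphate from kinases, destabilising mRNA or holding back NF-kappaB. Heat shock genes encode chaperones that bind unfolded protein and are switched on by heat shock factor, which binds the heat shock element. Both sets are known to be induced when tissue is dissociated into single cells, and in macrophages they also respond to inflammatory signals.

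The libraries held 13383274–32611875 counts in genes, and 3 counts corresponded to 0.0964–0.222 CPM, counts scaled by library size. Summed over each list, the markers matched the labels. Microglial markers summed to 27138–36296 CPM in microglia and to at most 6280 CPM in any other library. Border macrophage markers summed to 17.8–23.9 CPM in microglia and to more in all other libraries. Single genes differed, with Ms4a7 at a mean of 0.407 CPM in peritoneal macrophages and 0.606 in microglia, and Pf4 highest in peritoneal macrophages, at 1146. Large peritoneal macrophage markers summed to 5487–7019 CPM in peritoneal macrophages and to at most 2235 CPM elsewhere. Gata6, their defining factor, was at a mean of 172 CPM there, while Adgre1 was at 3061 there and at 1781–2001 in the dura and choroid plexus populations. Summed MHC class II genes were at 52638–59097 CPM in the MHC II-high and 2099–2327 CPM in the MHC II-low dura libraries. Choroid plexus epithelial markers summed to 7495, 4923, 5541 and 3966 CPM in choroid plexus libraries 1 to 4. In microglia they summed to 66.6, 20307, 715 and 331 CPM in libraries 1, 3, 4 and 5, so microglia library 3 stood apart. Below, values for single libraries are CPM in the order 1, 2, 3, 4, and 1, 3, 4, 5 for microglia. A gene was called between 2 populations at an adjusted p under 0.05 from edgeR's quasi-likelihood test and a change of at least 2-fold, and log2 fold changes are given ± SE.

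The 39 genes together took 6.22 ± 0.335% of all gene counts in dura MHC II-high, 6.98 ± 0.501% in dura MHC II-low, 5.80 ± 2.04% in choroid plexus macrophages and 7.57 ± 0.555% in microglia (mean ± SD, n = 4 each). In peritoneal macrophages they took 0.557 ± 0.0829% (SD, n = 4). Counting error was small beside the spread, with exact 95% binomial intervals no wider than 0.0133 percentage points to each side. The AP-1 genes made up the largest part in the 4 populations from the brain and its borders, with 3.32 ± 0.299% in microglia, and took 0.0616 ± 0.00879% in peritoneal macrophages. The heat shock part had another order, with 0.628 ± 0.145% and 0.662 ± 0.119% in dura MHC II-high and MHC II-low, 0.386 ± 0.0631% in choroid plexus macrophages, 0.249 ± 0.0375% in microglia and 0.213 ± 0.0606% in peritoneal macrophages. Among single genes the highest mean was in microglia for 16 of the 39, in dura MHC II-low for 13, in dura MHC II-high for 5 and in choroid plexus macrophages for 5. For 6 of the 7 heat shock genes it was in a dura population. These counts rank means without a test, and the shares over all genes were not counted. Between the dura populations 38 of the 39 genes were not called.

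**Figure D1:**
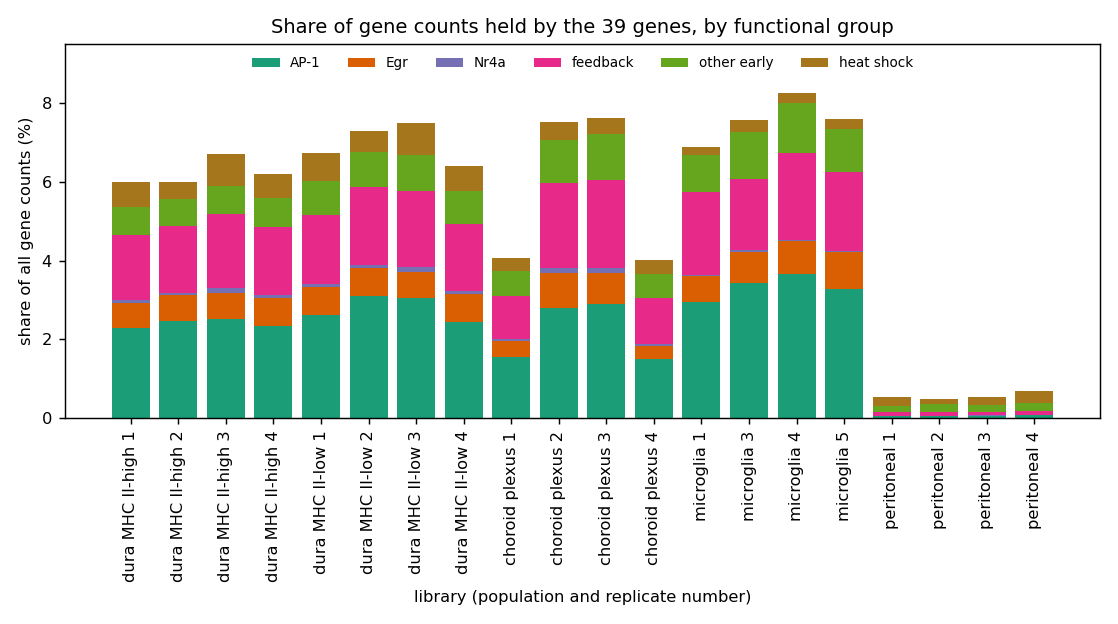
Share of all gene counts in each of the 20 libraries, in percent, stacked by the 6 parts. The peritoneal libraries lie between 0.484 and 0.676%, and choroid plexus libraries 1 to 4 at 4.05, 7.52, 7.62 and 4.02%.

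**Figure D2:**
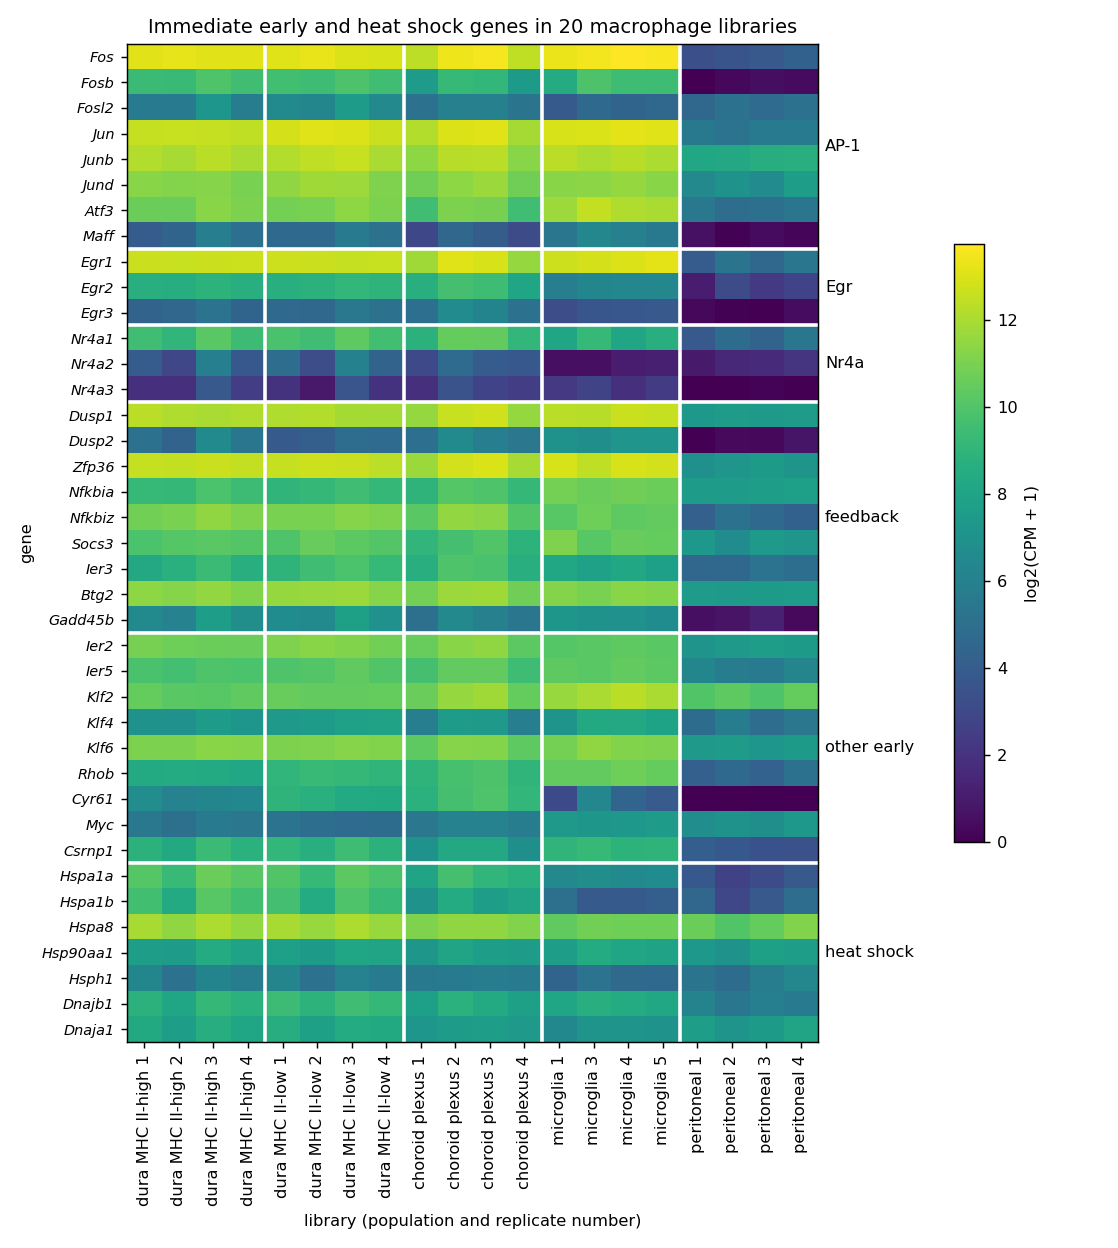
Level of each of the 39 genes (rows, by part) in each of the 20 libraries (columns, by population), as log2 of CPM plus 1. Dark cells are low: the 4 peritoneal columns are darker than the rest in the Egr and feedback rows and in all AP-1 rows but Fosl2, and closer to the other populations in most heat shock rows.

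Promoter sequences are shown first for 5 of the genes whose windows hold some of the elements searched for. Whether these elements bear on the differences between populations given below was not tested. RefSeq promoter windows (GRCm38.p6, 250 bases before to 50 after a gene's start, 1 start per window) were matched for 32 of the 39 genes. Egr1, Egr3, Hsp90aa1, Hspa8, Ier2, Myc and Nfkbiz had no matching window. Each line shows part of 1 window, 5′ to 3′ on the gene's strand. Capitals mark the CArG box, the full CRE, TGACGTCA, the short CRE, TGACG, which lies within the full one, and the Egr site, GCGNGGGCG, each on either strand. Fos, chr12:85473760-85473889, plus strand, encodes the Fos subunit of AP-1 and shows 2 short CREs. Egr2, chr10:67537749-67537868, plus strand, shows a CArG box between 2 short CREs. Nr4a1, chr15:101266766-101266845, plus strand, shows an Egr site between short CREs. Zfp36, chr7:28379229-28379338, minus strand, shows an Egr site and a CArG box, and Dusp1, chr17:26508473-26508622, minus strand, shows a full CRE.
Fos: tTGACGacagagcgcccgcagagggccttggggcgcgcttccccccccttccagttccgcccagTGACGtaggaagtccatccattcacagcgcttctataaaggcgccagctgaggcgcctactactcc
Egr2: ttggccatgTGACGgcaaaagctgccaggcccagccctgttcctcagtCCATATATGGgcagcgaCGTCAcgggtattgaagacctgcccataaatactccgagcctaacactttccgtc
Nr4a1: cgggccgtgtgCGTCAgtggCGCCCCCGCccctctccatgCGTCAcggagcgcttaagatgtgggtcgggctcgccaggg
Zfp36: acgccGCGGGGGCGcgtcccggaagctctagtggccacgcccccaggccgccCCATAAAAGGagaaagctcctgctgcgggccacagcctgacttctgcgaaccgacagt
Dusp1: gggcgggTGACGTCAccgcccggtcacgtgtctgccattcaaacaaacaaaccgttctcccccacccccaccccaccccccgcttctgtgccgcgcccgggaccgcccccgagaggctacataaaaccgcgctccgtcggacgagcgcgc

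Each motif was searched on both strands of all 32851 RefSeq promoters of this length. The CArG box was in the windows of 2 of the 32 genes, Egr2 and Zfp36, beside 1.63% of all promoters and, counted per gene as for the 32, 1.81% of genes. Some genes have several windows, and the second share counts a gene once if any of its windows holds the motif. The full CRE was in 3, those of Btg2, Dusp1 and Maff, beside 1.79% of promoters and 2.03% of genes. The Egr site was in 13 of the 32, beside 5.55% of promoters and 6.27% of genes. The short CRE, a motif added after the sequences were seen, was in 18 of the 32, beside 20.8% of promoters and 23.1% of genes. The AP-1 site TGANTCA was found for 1 gene, Csrnp1 (7.81% of promoters and 8.97% of genes). The kappaB site GGGNNTTCC was found for 1 gene, Dnaja1 (5.82% and 6.58%), and the Nr4a element AAAGGTCA for none (1.51% and 1.70%). The heat shock element was found for 1 gene, Hsph1, where it lay after the start, beside 0.603% of promoters and 0.662% of genes. A match describes these letters only and is not evidence of binding. A missing match is likewise not evidence that an element is absent. For the heat shock element 1 exact pattern was searched, only within these windows, and other forms of it were not. Whether the promoters of Hspa1a, Hspa1b and Dnajb1 hold it in another form was therefore not tested.

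Peritoneal macrophages stood apart from the other 4 populations in the early genes, with all 4 of their libraries below all 16 others in 30 of the 39 genes, against 13.7% of all genes tested. This held for 7 of 8 AP-1 genes, all 3 Egr genes, 2 of 3 Nr4a genes, all 9 feedback regulators and 7 of 9 other early genes. Among the heat shock genes it held for 2 of 7, Hspa1a and Dnajb1. Against microglia 31 of the 39 were called and all were lower (44.6% of all genes were called, 25.7% lower), with a median log2 fold change of -3.91 beside -0.11 over all genes. Against dura MHC II-high 34 were lower and 1 higher (29.2% called, 9.18% higher and 20.1% lower), with a median of -4.16 beside -0.10. Against dura MHC II-low it was again 34 lower and 1 higher (31.9% called, 11.9% higher and 20% lower), with a median of -4.55 beside -0.11. Against choroid plexus macrophages 33 were lower and 1 higher (36.7% called, 12.6% higher and 24.1% lower), with a median of -4.19 beside -0.13. The 1 gene called higher was Myc in each of these 3 comparisons, and all 4 comparisons share the peritoneal libraries. In bulk libraries, fewer cells that transcribe a gene and less RNA of it per cell cannot be told apart.

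Among the AP-1 genes, whose products pair as Fos-Jun dimers, Fos itself was lowest in peritoneal macrophages by a wide margin. The gene lies at chr12:85473890-85477273, plus strand, in GRCm38. Fos CPM was 8989, 9598, 8959.9 and 8912 in dura MHC II-high, 8489, 9819.6, 8377 and 7768 in dura MHC II-low and 5349, 10890.3, 11957 and 5493 in choroid plexus macrophages. The Fos values were 10575, 11494, 13726 and 12737 in microglia and 9.26, 10.8, 13.1 and 18.3 in peritoneal macrophages. The peritoneal libraries were all far below the rest, all microglia libraries were above both dura populations, and choroid plexus macrophages overlapped all 3. Fos was 943-fold lower in peritoneal macrophages than in microglia (log2 fold change -9.88 ± 0.33 (SE), adjusted p 1.56e-15) and 708-fold, 669-fold and 655-fold lower than in dura MHC II-high, dura MHC II-low and choroid plexus macrophages. Per kilobase of exon it was also the highest of the 39 genes, at 5159 CPM in microglia, followed by Jun at 2647.

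Jun and Fosb, the partner and a paralogue of Fos, had the same outlier population. Jun CPM was 5904, 6158, 5899 and 5443 in dura MHC II-high, 7334, 8697, 8185 and 6307 in dura MHC II-low and 4627, 8246, 8549 and 3827 in choroid plexus macrophages. The Jun values were 7730.1, 7967, 9405 and 8665 in microglia and 46.5, 36.9, 50.4 and 52.3 in peritoneal macrophages. Peritoneal Jun was lower than in microglia, with a log2 fold change of -7.50 ± 0.26 (SE), adjusted p 1.8e-15, and did not overlap any other population. For Fosb the values were 672, 627, 989 and 749.6 in dura MHC II-high, 765, 703, 965 and 741 in dura MHC II-low and 188, 583, 542 and 181 in choroid plexus macrophages. The Fosb values were 348, 954, 699 and 721 in microglia and 0.0346, 0.219, 0.414 and 0.343 in peritoneal macrophages. The peritoneal Fosb values rest on a handful of counts, and the first is below the floor of 3 counts. All choroid plexus libraries were below all dura libraries, and the log2 fold change against dura MHC II-low was -1.09 ± 0.37 (SE), adjusted p 0.0367. That call was lost in 5 of the 20 fits without 1 library, those without dura MHC II-low libraries 1, 3 or 4 or choroid plexus libraries 1 or 4, and the value was -1.40 to -0.86 over the 20 fits.

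Atf3, a stress-induced repressor that dimerises with Jun proteins, was higher in microglia than in any border population. Atf3 CPM was 1608, 1556, 2566 and 2059 in dura MHC II-high, 1907, 2033, 2739 and 2119 in dura MHC II-low and 732, 2107, 1933 and 739 in choroid plexus macrophages. The Atf3 values were 3449, 5819.6, 4385 and 4048 in microglia and 43.6, 29.4, 32.8 and 41.1 in peritoneal macrophages. Every microglia library lay above every other library. Against microglia the log2 fold change was -1.18 ± 0.30 (SE), adjusted p 0.00293, in dura MHC II-high, -1.01 ± 0.30 (SE), adjusted p 0.00936, in dura MHC II-low and -1.68 ± 0.31 (SE), adjusted p 0.000199, in choroid plexus macrophages. Without microglia library 3 the dura MHC II-low value moved to -0.92, adjusted p 0.0232, under 2-fold.

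Maff, a small Maf protein without an activation domain, was the AP-1 group gene furthest below microglia in choroid plexus macrophages. Maff CPM was 15.2, 20.6, 57.7 and 31.5 in dura MHC II-high, 24.8, 24.5, 49.5 and 35.2 in dura MHC II-low and 7.02, 21.8, 15.5 and 8.13 in choroid plexus macrophages. The Maff values were 41.8, 81.1, 62.8 and 46.3 in microglia and 0.518, 0.0729, 0.310 and 0.129 in peritoneal macrophages. The choroid plexus libraries all lay below the microglia libraries, at a log2 fold change of -2.14 ± 0.44 (SE), adjusted p 0.000769, while both dura populations overlapped microglia. Fosl2, chosen for description after its values were seen because it was the 1 AP-1 gene outside the peritoneal pattern, ran the other way. Its values were 51.5, 49.9, 147 and 56.2 in dura MHC II-high, 90.9, 79.5, 185 and 86.1 in dura MHC II-low and 33.3, 62.2, 62.3 and 38.2 in choroid plexus macrophages. The Fosl2 values were 13.7, 24.8, 20.6 and 23.3 in microglia and 23.8, 34.98, 26.7 and 35.7 in peritoneal macrophages. All microglia libraries were below all dura and choroid plexus libraries and peritoneal macrophages overlapped microglia, with a log2 fold change of 0.56 ± 0.37 (SE), adjusted p 0.185, not called. Fosl2 was higher than in microglia in dura MHC II-high (1.89 ± 0.37 (SE), adjusted p 0.000381), dura MHC II-low (2.42 ± 0.38 (SE), adjusted p 3.99e-05) and choroid plexus macrophages (1.25 ± 0.37 (SE), adjusted p 0.011). Library 3 was far above the other 3 in both dura populations, and without dura MHC II-high library 3 the peritoneal difference from that population was -0.80, adjusted p 0.028, no longer called. Junb and Jund were lower in peritoneal macrophages in all 4 comparisons and called in none of the others, and for Jund, whose exons overlap the model Gm11175 over 52.6% of their length, counts may be shared because the strand setting is not given.

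The 3 Egr genes, zinc finger factors that bind GC-rich sites, were called lower in peritoneal macrophages in every comparison, but differed among the brain and border populations. Egr1 CPM was 6467, 6234, 6316 and 6660.3 in dura MHC II-high, 6617, 6407, 5988 and 6182 in dura MHC II-low and 3549, 8461, 7706 and 3067 in choroid plexus macrophages. The Egr1 values were 6729, 7566, 8311 and 9458 in microglia and 14.9, 38.3, 23.3 and 41.3 in peritoneal macrophages. Egr1 in microglia was just above both dura populations, choroid plexus libraries 1 and 4 were below the dura libraries and libraries 2 and 3 above them, and the log2 fold change of peritoneal macrophages against microglia was -8.09 ± 0.40 (SE), adjusted p 2.01e-12. Egr2 CPM was 386, 382, 467 and 409 in dura MHC II-high, 396, 459, 548 and 482 in dura MHC II-low and 395, 816, 714 and 277 in choroid plexus macrophages. The Egr2 values were 58.0, 79.5, 81.7 and 80.1 in microglia and 1.17, 8.16, 4.03 and 5.91 in peritoneal macrophages. Here microglia were the low brain population, with every microglia library below every dura and choroid plexus library. Egr2 exceeded microglia by a log2 fold change of 2.46 ± 0.39 (SE), adjusted p 4.2e-05, in dura MHC II-high, 2.65 ± 0.39 (SE), adjusted p 2.22e-05, in dura MHC II-low and 2.88 ± 0.39 (SE), adjusted p 1.28e-05, in choroid plexus macrophages.

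Egr3 had the same order of microglia and border populations as Egr2. Egr3 CPM was 20.1, 21.9, 36.0 and 20.9 in dura MHC II-high, 25.2, 24.5, 44.7 and 35.9 in dura MHC II-low and 31.8, 97.7, 71.6 and 35.8 in choroid plexus macrophages. The Egr3 values were 8.34, 11.9, 12.04 and 13.4 in microglia and 0.207, 0.0729, 0 and 0.386 in peritoneal macrophages. The microglia libraries again lay below all dura and choroid plexus libraries, and 1 peritoneal library had no Egr3 count, against an upper limit of 3 counts. Over microglia the log2 fold change was 1.11 ± 0.37 (SE), adjusted p 0.0162, in dura MHC II-high, 1.51 ± 0.37 (SE), adjusted p 0.00235, in dura MHC II-low and 2.37 ± 0.38 (SE), adjusted p 5.1e-05, in choroid plexus macrophages. It was also higher in choroid plexus than in dura MHC II-high macrophages, by 1.26 ± 0.36 (SE), adjusted p 0.0159, which without choroid plexus library 2 was 0.90, adjusted p 0.0739. Without dura MHC II-high library 3 the value of that population over microglia was 0.88, adjusted p 0.0639, and without microglia library 1 it was 0.94, adjusted p 0.0596.

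The Nr4a genes encode orphan nuclear receptors that restrain inflammatory transcription in macrophages, and 2 of the 3 were higher in the border populations than in microglia. Nr4a1 CPM was 732, 520.0, 1217 and 683 in dura MHC II-high, 879, 737, 1310.2 and 761 in dura MHC II-low and 462, 1461, 1375 and 543 in choroid plexus macrophages. The Nr4a1 values were 266, 584, 279.6 and 404 in microglia and 13.5, 28.4, 19.5 and 40.6 in peritoneal macrophages. Nr4a1 in microglia library 3 overlapped the dura MHC II-high and choroid plexus libraries, the other 3 microglia libraries lay below all dura and choroid plexus libraries, and the peritoneal libraries were below all 16. The log2 fold change over microglia was 1.04 ± 0.42 (SE), adjusted p 0.0453, in dura MHC II-high, 1.27 ± 0.42 (SE), adjusted p 0.0186, in dura MHC II-low and 1.33 ± 0.42 (SE), adjusted p 0.0174, in choroid plexus macrophages. These calls depended on single libraries. The first was lost in 15 of the 20 fits that left out 1 library, with values of 0.75 to 1.26 over the 20 fits, the second without dura MHC II-low library 3 (0.99, adjusted p 0.0754), microglia library 1 (1.10, adjusted p 0.0604) or microglia library 4 (1.11, adjusted p 0.0578), and the third without choroid plexus library 2 (1.00, adjusted p 0.0755) or library 3 (1.04, adjusted p 0.0695) or either of those microglia libraries.

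Against microglia, Nr4a2 gave the largest fold changes of the 3. Nr4a2 CPM was 15.3, 6.51, 59.0 and 12.9 in dura MHC II-high, 28.7, 8.42, 65.5 and 19.5 in dura MHC II-low and 7.32, 26.8, 15.2 and 12.6 in choroid plexus macrophages. The Nr4a2 values were 0.502, 0.494, 1.04 and 1.32 in microglia and 0.967, 1.97, 2.07 and 3.17 in peritoneal macrophages. In microglia 3 counts corresponded to 0.174–0.198 CPM, so the fold changes against microglia rest on low counts there. All dura and choroid plexus libraries were above all microglia and peritoneal libraries, and the latter overlapped microglia, so Nr4a2 was outside the peritoneal pattern. Over microglia the log2 fold change was 4.79 ± 0.82 (SE), adjusted p 9.94e-05, in dura MHC II-high, 5.18 ± 0.83 (SE), adjusted p 5.66e-05, in dura MHC II-low and 4.20 ± 0.81 (SE), adjusted p 0.000449, in choroid plexus macrophages. In each dura population library 3 held the highest and library 2 the lowest value. For Nr4a3 only 3 counts were found over the 4 peritoneal libraries, all in library 3, against 562 in dura MHC II-high, a ratio of 200.6 with a 95% counting interval of 68.3 to 976. Without that library the ratio was at least 147, taking 3 counts over the group as the limit.

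The 9 feedback regulators were below all other populations in every peritoneal library. Zfp36, which binds AU-rich elements and speeds the decay of cytokine mRNA, is described first. Zfp36 CPM was 5976, 5733, 6496 and 5793 in dura MHC II-high, 5882, 6682, 6312 and 5252 in dura MHC II-low and 3276, 7199.9, 7927 and 3936 in choroid plexus macrophages. The Zfp36 values were 7793, 5548, 7736 and 7080.5 in microglia and 118, 141, 180.1 and 139 in peritoneal macrophages. The peritoneal libraries stood alone, with a log2 fold change of -5.61 ± 0.26 (SE), adjusted p 1.53e-13, against microglia, and the other populations overlapped. Nfkbiz, an atypical IkappaB protein that acts in the nucleus, was at 1821, 2031, 2804 and 2178 in dura MHC II-high, 2055, 2048, 2439 and 2199 in dura MHC II-low and 1199, 2978, 2636 and 1032 in choroid plexus macrophages. The Nfkbiz values were 1136, 1687, 1289.8 and 1411 in microglia and 17.7, 33.7, 24.8 and 18.3 in peritoneal macrophages. Peritoneal macrophages were apart, with a log2 fold change of -5.87 ± 0.35 (SE), adjusted p 2.69e-11, against microglia. Microglia were below both dura populations without passing the call, and Nfkbiz was called between no other populations.

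Dusp2, a phosphatase of nuclear MAP kinases, separated microglia from both dura populations. Dusp2 CPM was 35.9, 19.4, 92.2 and 41.7 in dura MHC II-high, 13.7, 17.1, 29.4 and 26.8 in dura MHC II-low and 31.4, 89.4, 57.2 and 41.9 in choroid plexus macrophages. The Dusp2 values were 134, 115, 140.5 and 144 in microglia and 0, 0.255, 0.241 and 0.729 in peritoneal macrophages. Every microglia library was above every other library, and a peritoneal library had no count, against an upper limit of 3 counts. The log2 fold change against microglia was -1.50 ± 0.44 (SE), adjusted p 0.00831, in dura MHC II-high, -2.62 ± 0.46 (SE), adjusted p 0.000138, in dura MHC II-low and -1.28 ± 0.44 (SE), adjusted p 0.0257, in choroid plexus macrophages. The last of these was lost without choroid plexus library 1 (-1.09, adjusted p 0.0789) or library 4 (-1.17, adjusted p 0.0724) and with replicate number as a block (-1.29, adjusted p 0.0535).

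Gadd45b, a stress sensor that acts on p38 and JNK signalling, was lower in choroid plexus macrophages than in microglia and dura MHC II-low. Gadd45b CPM was 92.1, 66.3, 210.5 and 111 in dura MHC II-high, 102, 94.2, 227 and 121 in dura MHC II-low and 32.7, 89.1, 63.0 and 40.5 in choroid plexus macrophages. The Gadd45b values were 153, 127, 125 and 101 in microglia and 0.484, 0.656, 1.38 and 0.257 in peritoneal macrophages. All choroid plexus libraries were below all microglia libraries, at a log2 fold change of -1.17 ± 0.40 (SE), adjusted p 0.0252, and below all dura MHC II-low libraries, at -1.27 ± 0.40 (SE), adjusted p 0.0236. Without choroid plexus library 1 these were -0.98, adjusted p 0.0775 and -1.08, adjusted p 0.0713, and without library 4 -1.04, adjusted p 0.0755 and -1.14, adjusted p 0.071, none called. The second was also lost without dura MHC II-low library 3 (-0.90, adjusted p 0.1).

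Nfkbia, which holds NF-kappaB in the cytoplasm, was lower than in microglia in dura MHC II-high (-1.29 ± 0.21 (SE), adjusted p 3.75e-05), dura MHC II-low (-1.49 ± 0.21 (SE), adjusted p 7.85e-06) and choroid plexus macrophages (-1.10 ± 0.21 (SE), adjusted p 0.00028). Its means were 1690.2 ± 165 CPM in microglia, 789 ± 305 in choroid plexus and 201 ± 14.3 in peritoneal macrophages (SD, n = 4). Without choroid plexus library 1 its choroid plexus value was -0.93, adjusted p 0.000955, and without library 4 -0.97, adjusted p 0.00154, both under 2-fold. Dusp1, the MAP kinase phosphatase whose promoter is shown above, was at 5635 ± 653 CPM in microglia and 177 ± 16.4 in peritoneal macrophages and was called only in the peritoneal comparisons.

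The other early genes were the most mixed part. Cyr61, a secreted matrix protein induced by mechanical signals, was the 1 gene of the 39 called between the dura populations (3.88% of all genes were called there, 1.48% lower in MHC II-high). Cyr61 CPM was 107, 67.9, 77.2 and 85.0 in dura MHC II-high, 494, 419, 331 and 325 in dura MHC II-low and 437, 824, 1011 and 554 in choroid plexus macrophages. The Cyr61 values were 7.40, 81.4, 21.2 and 14.7 in microglia and 0, 0, 0.0345 and 0 in peritoneal macrophages. Dura MHC II-low libraries were all above dura MHC II-high, whose log2 fold change was -2.22 ± 0.51 (SE), adjusted p 0.00923. Microglia library 3 overlapped the dura MHC II-high libraries and the other 3 microglia libraries were lower. The log2 fold change over microglia was 1.43 ± 0.51 (SE), adjusted p 0.0253, in dura MHC II-high, 3.65 ± 0.55 (SE), adjusted p 3.26e-05, in dura MHC II-low and 4.50 ± 0.57 (SE), adjusted p 6.55e-06, in choroid plexus macrophages.

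Without microglia library 3, which was also the one with high epithelial markers, those Cyr61 values rose to 2.48, 4.69 and 5.54. Without dura MHC II-high library 1 the first was 1.30, adjusted p 0.0591, without microglia library 4 1.26, adjusted p 0.0677 and without microglia library 5 1.15, adjusted p 0.0778, none of them called. The part of epithelial RNA in the Cyr61 values was not tested. A single Cyr61 count was found over the 4 peritoneal libraries, in library 3, against 8735 in dura MHC II-high, a ratio of 9355 with a 95% counting interval of 1679 to 369552. Without that library the ratio was at least 2287, taking 3 counts over the group as the limit.

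Rhob, a small GTPase of endosomes and the actin skeleton, was graded from microglia to dura MHC II-high. Rhob CPM was 339, 350.1, 339 and 307 in dura MHC II-high, 531, 611, 570.3 and 509 in dura MHC II-low and 487, 857, 968 and 503 in choroid plexus macrophages. The Rhob values were 1402, 1388, 1654 and 1459 in microglia and 17.2, 24.6, 18.8 and 34.1 in peritoneal macrophages. Microglia were above all other libraries, both dura populations and choroid plexus macrophages were intermediate, and peritoneal macrophages were lowest. Relative to microglia its log2 fold change was -2.14 ± 0.21 (SE), adjusted p 5.24e-08, in dura MHC II-high, -1.41 ± 0.21 (SE), adjusted p 1.11e-05, in dura MHC II-low and -1.07 ± 0.21 (SE), adjusted p 0.00028, in choroid plexus macrophages, where it fell under 2-fold without choroid plexus library 1 (-0.93, adjusted p 0.00137) or library 4 (-0.94, adjusted p 0.0015).

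Csrnp1, a nuclear protein induced by axin, and Ier5, which feeds into heat shock factor activity, are given next. Csrnp1 CPM was 455, 331, 649.9 and 445 in dura MHC II-high, 544, 409.8, 704 and 448 in dura MHC II-low and 130.4, 317, 314 and 116 in choroid plexus macrophages. The Csrnp1 values were 505, 591, 474 and 489 in microglia and 16.3, 12.6, 10.03 and 9.51 in peritoneal macrophages. Each choroid plexus library was below every microglia, dura MHC II-low and dura MHC II-high library, at log2 fold changes of -1.23 ± 0.30 (SE), adjusted p 0.00296, -1.26 ± 0.30 (SE), adjusted p 0.00443 and -1.10 ± 0.30 (SE), adjusted p 0.0127. The last was lost without dura MHC II-high library 3 (-0.90, adjusted p 0.0474) or choroid plexus library 1 (-0.92, adjusted p 0.0403) or library 4 (-0.89, adjusted p 0.0366). Ier5 CPM was 874, 808, 1004 and 921 in dura MHC II-high, 996, 1089, 1327 and 1024 in dura MHC II-low and 824, 1368, 1369 and 716 in choroid plexus macrophages. The Ier5 values were 1311, 1199.6, 1394 and 1239 in microglia and 79.6, 56.1, 48.0 and 75.5 in peritoneal macrophages. Ier5 in choroid plexus macrophages overlapped the dura and microglia, and Ier5 was called only in the peritoneal comparisons.

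Klf4, a zinc finger factor of monocyte differentiation, was lower in choroid plexus macrophages than in microglia. Klf4 CPM was 132, 122, 187 and 149 in dura MHC II-high, 166, 188, 236 and 238 in dura MHC II-low and 57.3, 191, 168 and 57.5 in choroid plexus macrophages. The Klf4 values were 136, 322, 311 and 249 in microglia and 27.9, 54.0, 28.7 and 42.6 in peritoneal macrophages. The other 4 populations overlapped, peritoneal libraries were below all of them, and the choroid plexus log2 fold change against microglia was -1.10 ± 0.37 (SE), adjusted p 0.024, lost without choroid plexus library 1 (-0.87, adjusted p 0.0688) or library 4 (-0.87, adjusted p 0.0708). Myc, which drives growth and ribosome synthesis, was the 1 early gene called higher in peritoneal macrophages, and with Fosl2, Nr4a2 and Klf2 it was outside the pattern of low peritoneal values. Its means were 42.0 ± 6.67, 30.4 ± 4.49, 58.0 ± 12.2, 172 ± 17.4 and 126 ± 25.6 CPM in dura MHC II-high, dura MHC II-low, choroid plexus, microglia and peritoneal macrophages (SD, n = 4). Peritoneal Myc was higher than in dura MHC II-high (1.59 ± 0.16 (SE), adjusted p 8.03e-08), dura MHC II-low (2.05 ± 0.17 (SE), adjusted p 1.85e-09) and choroid plexus macrophages (1.12 ± 0.16 (SE), adjusted p 6.34e-06), and was -0.45 ± 0.16 (SE), adjusted p 0.0183, from microglia, under 2-fold. The choroid plexus difference was under 2-fold without peritoneal library 4 (0.98, adjusted p 2.99e-05) or choroid plexus library 1 (1.00, adjusted p 3.43e-05).

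**Figure D3:**
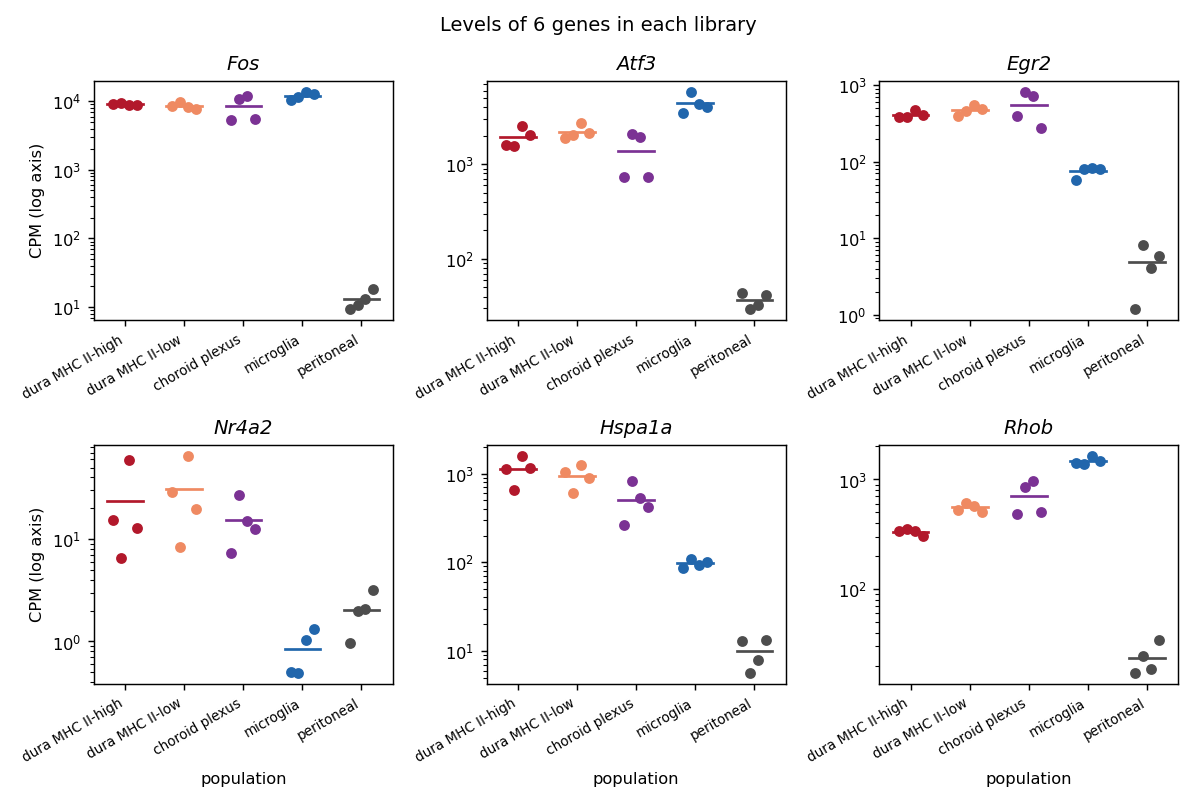
Level of Fos, Atf3, Egr2, Nr4a2, Hspa1a and Rhob in CPM on a log axis, by population. Points are libraries and bars are the mean of 4; the peritoneal points are lowest for Fos, Atf3, Egr2, Hspa1a and Rhob, while Nr4a2 is low in microglia too.

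Of the heat shock genes, 5 of 7 were higher than in microglia in both dura populations, where 15.7% of all genes were higher in MHC II-high and 13.8% in MHC II-low, and none was lower. All peritoneal libraries were below all other libraries in 2 of the 7, Hspa1a and Dnajb1, beside 13.7% of all genes tested. Hspa1a and Hspa1b encode the inducible Hsp70 chaperone from near-identical neighbouring copies, so counts may be split between them in an uncertain way; Hspa1a lies at chr17:34969190-34972156, minus strand, and 19.0% of its exon length is shared with the model Gm20481. Hspa1a CPM was 1114, 645, 1598 and 1167 in dura MHC II-high, 1046, 597, 1258 and 895 in dura MHC II-low and 261, 819, 537 and 422 in choroid plexus macrophages. The Hspa1a values were 86.2, 109, 93.0 and 101 in microglia and 12.9, 5.65, 7.86 and 13.1 in peritoneal macrophages. Each microglia library was below every dura and choroid plexus library, and each peritoneal library below all. Hspa1a exceeded microglia by a log2 fold change of 3.54 ± 0.37 (SE), adjusted p 2.67e-07, in dura MHC II-high, 3.28 ± 0.36 (SE), adjusted p 6.46e-07, in dura MHC II-low and 2.39 ± 0.35 (SE), adjusted p 2.39e-05, in choroid plexus macrophages. Hspa1a was lower in choroid plexus than in dura MHC II-high macrophages, at -1.15 ± 0.34 (SE), adjusted p 0.0186, and this call was lost with replicate number as a block (-1.07, adjusted p 0.0512) and without dura MHC II-high library 3 (-0.94, adjusted p 0.0638), choroid plexus library 1 (-0.93, adjusted p 0.0521) or choroid plexus library 4 (-1.07, adjusted p 0.0545). Hspa1b, read with that caution, was at 758, 339, 1134 and 761 in dura MHC II-high, 798, 352, 980.0 and 609 in dura MHC II-low and 134, 356, 206 and 255 in choroid plexus macrophages. The Hspa1b values were 32.7, 14.1, 14.0 and 16.9 in microglia and 22.4, 6.70, 13.1 and 29.7 in peritoneal macrophages. Every dura and choroid plexus library was above every microglia library. Microglia and peritoneal macrophages overlapped, with a difference of -0.11 ± 0.48 (SE), adjusted p 0.845, not called. Over microglia Hspa1b was higher by 5.27 ± 0.55 (SE), adjusted p 4.76e-07, in dura MHC II-high, 5.14 ± 0.55 (SE), adjusted p 6.52e-07, in dura MHC II-low and 3.62 ± 0.51 (SE), adjusted p 2.25e-05, in choroid plexus macrophages. In the windows of 300 bases around their starts, the 2 copies differ at 4 bases.

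Dnajb1 and Dnaja1 are co-chaperones that hand unfolded protein to Hsp70. Dnajb1 CPM was 449, 279.8, 575 and 440.5 in dura MHC II-high, 675, 478, 727 and 576 in dura MHC II-low and 215, 438, 334 and 227 in choroid plexus macrophages. The Dnajb1 values were 284, 394, 355 and 297 in microglia and 70.0, 40.7, 59.7 and 51.9 in peritoneal macrophages. Peritoneal libraries were below all others, at a log2 fold change of -2.58 ± 0.25 (SE), adjusted p 2.47e-08 against microglia, and choroid plexus macrophages were below dura MHC II-low, at a log2 fold change of -1.02 ± 0.24 (SE), adjusted p 0.00328, a call lost with replicate number as a block (-0.99, adjusted p 0.00616) and without dura MHC II-low library 1 (-0.96, adjusted p 0.00923), dura MHC II-low library 3 (-0.92, adjusted p 0.0113), choroid plexus library 1 (-0.88, adjusted p 0.0136) or choroid plexus library 4 (-0.90, adjusted p 0.0146). Dnaja1 CPM was 326, 204, 376 and 285 in dura MHC II-high, 372, 222, 352 and 327 in dura MHC II-low and 148, 195, 199 and 174 in choroid plexus macrophages. The Dnaja1 values were 84.5, 139.5, 138 and 130.3 in microglia and 211, 139, 181 and 257 in peritoneal macrophages. Dnaja1 was not called lower in peritoneal macrophages, whose libraries overlapped the dura and choroid plexus libraries. Dnaja1 was higher than in microglia in dura MHC II-high (1.27 ± 0.21 (SE), adjusted p 5.4e-05) and dura MHC II-low (1.37 ± 0.21 (SE), adjusted p 2.75e-05).

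The remaining chaperones were Hspa8, Hsph1 and Hsp90aa1. Hspa8, the housekeeping member of the Hsp70 family, had means of 3515 ± 691, 3636 ± 516, 2505 ± 363, 1609 ± 197 and 1584 ± 518 CPM in dura MHC II-high, dura MHC II-low, choroid plexus, microglia and peritoneal macrophages (SD, n = 4). It was higher than in microglia in dura MHC II-high (1.13 ± 0.19 (SE), adjusted p 5.55e-05) and dura MHC II-low (1.18 ± 0.19 (SE), adjusted p 3.89e-05). The first was 0.99, adjusted p 0.000531, under 2-fold, without microglia library 1, and the peritoneal fall from dura MHC II-high was -0.99, adjusted p 0.000151 without peritoneal library 2. Hsph1, a nucleotide exchange factor of Hsp70, was higher than in microglia in both dura populations, by 1.14 ± 0.30 (SE), adjusted p 0.00401, in MHC II-high and 1.06 ± 0.30 (SE), adjusted p 0.00728, in MHC II-low, both below 2-fold in some fits without 1 library. The first was lost without dura MHC II-high library 1 (0.99, adjusted p 0.0156) or microglia library 1 (0.98, adjusted p 0.0183). The second was lost in 7 of the 20 fits, with values of 0.83 to 1.16 over the 20 fits, those without dura MHC II-high library 2 or 4, dura MHC II-low library 1 or 3, peritoneal library 1, or microglia library 1 or 5. Hsp90aa1, the inducible cytosolic Hsp90, was the 1 gene of the 39 called in none of the 10 comparisons, where 40.9% of all genes were called in none. Its means were 249 ± 74.9, 232 ± 44.0, 202 ± 46.7, 264 ± 66 and 180.2 ± 41.1 CPM in that order.

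Against microglia, then, 11 genes were higher and 6 lower in dura MHC II-high (27.9% of all genes were called, 15.7% higher and 12.2% lower), 12 higher and 6 lower in dura MHC II-low (26.5%, 13.8% higher and 12.7% lower), and 9 higher and 10 lower in choroid plexus macrophages (19.2%, 12.1% higher and 7.11% lower). By part, the heat shock genes were called only higher, 5 of 7 in each dura population and 2 of 7 in choroid plexus macrophages. The Egr and Nr4a genes were also called only higher, 2 of 3 in each part and population, and Egr1 and Nr4a3 were not called. Of the 9 feedback regulators in dura MHC II-high, 2 were lower and none higher, and in dura MHC II-low 2 were lower and 1, Ier3, was higher. In choroid plexus macrophages 4 were lower and Ier3 was again the 1 higher. These 3 comparisons share the microglia libraries. With each library left out in turn, 12 of the 17 calls remained in every fit for dura MHC II-high, 15 of the 18 for dura MHC II-low and 12 of the 19 for choroid plexus macrophages.

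**Figure D4:**
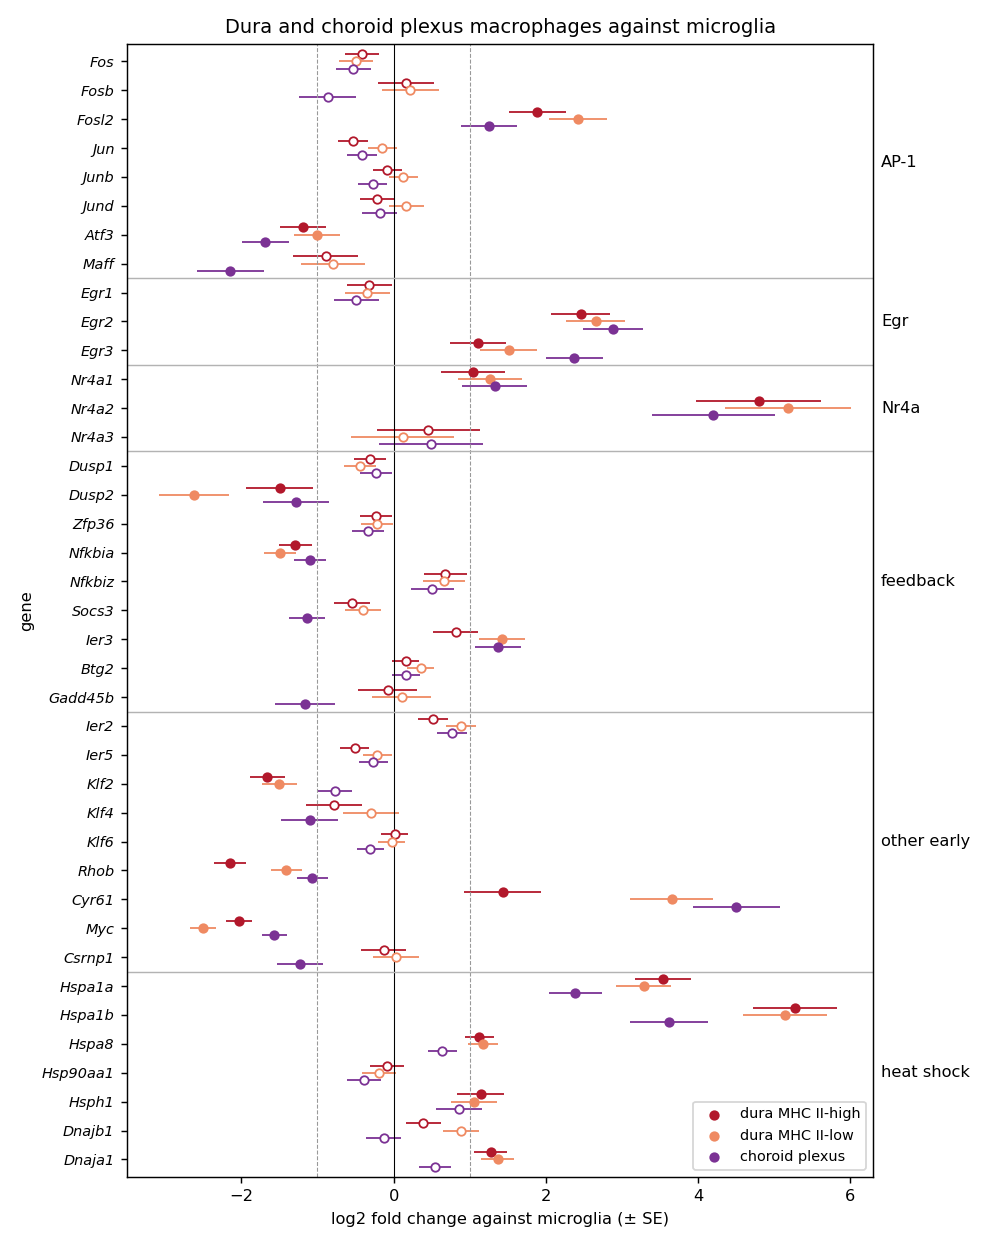
Log2 fold change against microglia of each of the 39 genes, with SE bars, for dura MHC II-high, dura MHC II-low and choroid plexus macrophages. Filled points were called, and dashed lines mark a 2-fold change in either direction; heat shock, Egr and Nr4a genes lie mainly to the right and Atf3, Dusp2, Nfkbia, Rhob and Myc to the left.

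Between the border populations themselves fewer of the 39 genes were called than against microglia, and the same was so for all genes tested. Choroid plexus macrophages had 3 higher (Cyr61, Egr3 and Rhob) and 4 lower (Csrnp1, Hspa1a, Hspa1b and Maff) than dura MHC II-high (9.88% of all genes were called, 5.87% higher and 4% lower). Against dura MHC II-low they had 1 higher, Dusp2, and 7 lower, Csrnp1, Dnajb1, Fosb, Fosl2, Gadd45b, Hspa1b and Maff (12.8%, 8.63% higher and 4.18% lower). Leaving out 1 library at a time, only Cyr61 of the first 7 and only Csrnp1 of the second 8 were called in every fit. The first count fell to 3 without dura MHC II-high library 3 and to 4 without choroid plexus library 1. The second fell to 2 without dura MHC II-low library 3 and to 4 without choroid plexus library 1 or library 4.

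The wider pathways were counted from lists of genes outside the 39. Of 15 further early response genes, 11 were lower and 1 higher in peritoneal macrophages than in microglia, where 25.7% of all genes tested were lower and 18.9% higher. Against choroid plexus macrophages 13 were lower and 1 higher, beside 24.1% and 12.6% of all genes. Of 18 further feedback genes, 14 were lower and 1, Gadd45a, higher than in microglia. Of 16 further heat shock factors and chaperones, 4 were lower, a share close to that of all genes, and 1 was higher. Of 8 chaperones of the endoplasmic reticulum and mitochondria none was lower and 1 was higher. Among 12 upstream factors, such as Srf, Creb1 and the kinases of the MAP kinase cascade, 3 were lower and 2 higher, shares close to those of all genes, and among 8 further AP-1 and related bZIP genes that could be tested 3 were lower and 3 higher.

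Gem, a GTP-binding inhibitor of calcium channels, was on the early response list, with a mean of 425 CPM in microglia, 18.5, 28.8 and 13.1 in dura MHC II-high, dura MHC II-low and choroid plexus macrophages, and 0.443 in peritoneal macrophages. Sgk1, a kinase induced by serum and glucocorticoid, was at a mean of 3924 CPM in microglia, against 101–205 CPM in the other 4 populations. Tnfaip3, a ubiquitin editor that ends NF-kappaB signalling, was at 1041 CPM in microglia but 14.2 in peritoneal macrophages. Hspa4l, an Hsp110-type chaperone, was higher in peritoneal macrophages, at 47.2 CPM against 6.76 in microglia, and Hspb1, a small heat shock protein, was lower, at 2.30 against 56.9.

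The spread between libraries of a population was given as the SD of log2 CPM. Over the 39 genes its median was 0.288 in dura MHC II-high, 0.268 in dura MHC II-low, 0.235 in microglia and 0.374 in peritoneal macrophages, beside 0.243, 0.227, 0.239 and 0.284 over all genes tested. Without library 3 the dura MHC II-high median of the 39 genes was 0.153 and without library 2 it was 0.241. The median over all genes was not computed without those libraries, so these values have no counterpart. In choroid plexus macrophages it was 0.623 beside 0.192, and 38 of the 39 genes were above the median of all genes. The steadiest were Egr1, with an SD of 0.04, and Fos, with 0.05, both in dura MHC II-high.

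The choroid plexus spread was seen in every part and was smallest in the heat shock genes. The median SD there was 0.605 in AP-1, 0.753 in Egr, 0.821 in Nr4a, 0.644 in feedback, 0.546 in other early and 0.328 in heat shock genes. Libraries 2 and 3 held the highest value in 22 and 17 of the 39 genes, and libraries 1 and 4 the lowest in 25 and 14, where over all genes each library was highest or lowest in 20.3–27.7%. The median deviation of the 39 genes from the population mean was -0.56, 0.49, 0.51 and -0.49 on the log2 scale in libraries 1 to 4. Fos, for instance, was at 5349, 10890.3, 11957 and 5493 CPM. Gene counts were 13383274, 16052955, 16006967 and 15389573, so libraries 1 and 4 were also the shallower ones. The epithelial markers given above were highest in library 1 and lowest in library 4, and fibroblast markers summed to 340, 286, 400 and 968 CPM.

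In the dura the libraries numbered 3 were the high ones. Library 3 held the highest value in 29 of the 39 genes in dura MHC II-high and in 24 in dura MHC II-low, where over all genes it did so in 24.6% and 24.0%. In 24 genes it was highest in both populations, against 8.59% of all genes. These were 5 of 8 AP-1, 2 of 3 Egr, 3 of 3 Nr4a, 6 of 9 feedback, 3 of 9 other early and 5 of 7 heat shock genes. The Nr4a genes deviated most, with medians of 1.55 and 1.47 on the log2 scale in library 3 of the MHC II-high and MHC II-low populations. The heat shock genes were lowest in library 2, with medians of -0.59 and -0.49.

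In microglia, library 1 held the lowest value in 23 of the 39 genes, where over all genes it did so in 28.9%, and library 3, the one with the high epithelial markers, the highest in 17 (34.8% of all genes). Peritoneal library 4 was highest in 20 and library 1 lowest in 21, against 24% and 27.6% of all genes. Peritoneal Egr genes, all at low levels, had a median SD of 1.05. The part of cell handling, depth or other cells in these differences between libraries was not tested.

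**Figure D5:**
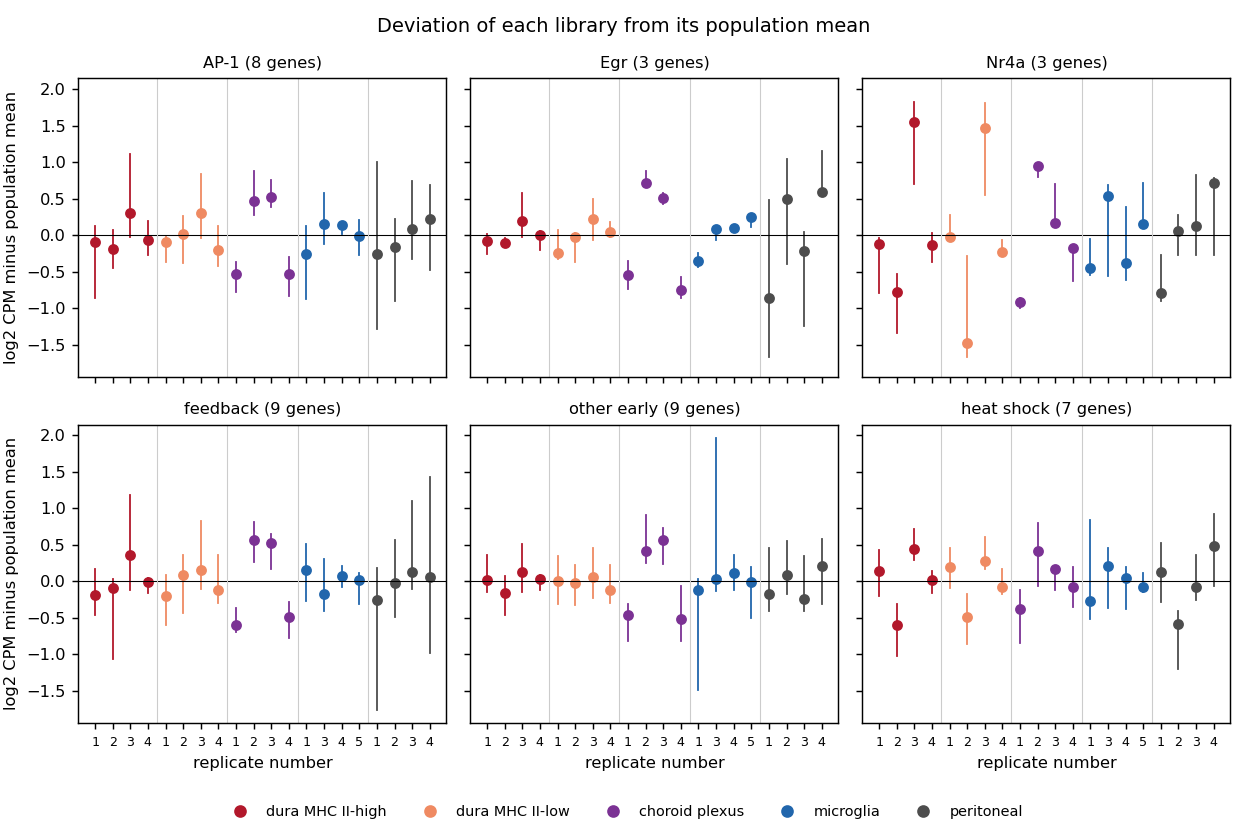
Deviation of log2 CPM from the population mean, per library, with the median and range over the genes of each part. The medians of choroid plexus libraries 2 and 3 lie above 0 and those of 1 and 4 below. In heat shock genes the ranges of libraries 2, 3 and 4 cross 0, and the median of library 4 is -0.076. Library 3 is high in both dura populations, most of all in Nr4a genes.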

How the data were processed

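Total RNA of 20 libraries of mouse macrophages was sequenced, 4 in each of 5 populations, and samples were grouped by their labels. Per the submitters' processing notes, the tools were TopHat2 2.1.0, Trimmomatic 0.38, SAMtools 0.1.18 and FastQC 0.11.4, with mm10. Not given in the sources used here are the strand setting, annotation and counting program. The deposited values are whole-number counts of reads per gene symbol, per the file headers and values, for 24421 genes. Lines that name no gene were left out: reads in no feature made up 5.67–13.1% of a library and ambiguous reads 0.836–1.51%. Gene counts came to 13383274–32611875 per library; floors and intervals take in counting error alone.

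One edgeR 4.0.16 model (R 4.3.3) held all 20 libraries, with TMM factors of 0.923–1.05. The filterByExpr filter left 13960 genes. The common biological coefficient of variation was 0.302, the quasi-likelihood test had 15 residual degrees of freedom, and p-values were adjusted by Benjamini-Hochberg over all genes tested. Calls needed an adjusted p under 0.05 and a 2-fold change. Log2 CPM for the spread used a prior count of 2. Gene positions and exon lengths came from GENCODE M21 (GRCm38), which may not be the authors' annotation. Counts were also simulated for choroid plexus against microglia over 13686 genes. Apart from the changes set, each gene had the same mean in all populations and the spread fitted for genes of its level. At an adjusted p under 0.05 alone, 48 of 100 genes changed 2-fold and 74 of 100 changed 4-fold were recovered, and 6 unchanged genes passed. The 2-fold limit was not applied there, so recovery under the full rule for a call was not measured. In the choroid plexus libraries the 39 genes had a median SD of 0.623, beside 0.192 over all genes. The simulation did not use that wider spread, so its recovery need not hold for the 39 genes.

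The members and lists were chosen with earlier results of these data known. Values in every library are given for up to 4 genes per part with the widest range of population means and for the 2 with the largest spread, each at 10 CPM or more. Alternatives were RLE size factors, no filter, a filter of 10 CPM, DESeq2 1.42.0, fits of only the 2 populations compared, replicate number as a block, leaving out each library, and scaling on genes outside the lists, the last chosen after seeing the data.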

Additional observations from a re-analysis of the deposited data

Results flagged for a closer look

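A library was singled out where its gap to the nearest of the 4 libraries of its population was large for the population's whole range, by Dixon's 95% critical value, which chance passes in about 1 of 20 groups. This was so in 8 of 187 groups of the 39 genes, 4.28%, against 6.72% of the groups of all genes. In dura MHC II-high, library 3 was the high one for Fosl2 (147 CPM, others 49.9–56.2), Egr3 (36.0, others 20.1–21.9) and Nr4a2 (59.0, others 6.51–15.3), and library 2 for Fos (9598, others 8912–8989). In dura MHC II-low, library 3 was high for Fosl2 (185 CPM, others 79.5–90.9). Microglia library 1 was low for Egr2 (58.05 CPM, others 79.5–81.7) and Dnaja1 (84.5, others 130.3–139.5) and high for Hspa1b (32.7, others 14.0–16.9).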

How the results depend on the processing

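No result reversed under any alternative. Of the counts of called genes, 1 moved by over 1.5 times outside the fits without 1 library: choroid plexus against dura MHC II-high gave 3 in a fit of only those populations, where the fit of all 20 libraries gave 7. With 1 library left out in turn, the counts were 1–2 for dura MHC II-high against MHC II-low (2 without MHC II-high library 2 or 3). They were 13–20 for choroid plexus, 16–18 for dura MHC II-low, 14–17 for dura MHC II-high and 31–32 for peritoneal macrophages against microglia. They were 3–8 and 2–9 for choroid plexus against dura MHC II-high and MHC II-low, and 34–35, 35–35 and 33–34 for peritoneal macrophages against dura MHC II-high, dura MHC II-low and choroid plexus. Genes called in no comparison numbered 1–2 (2 without microglia library 1), and 30 were lower in peritoneal macrophages in all 4 comparisons in each of these fits. The median SD of the 39 genes ranged over 0.153–0.337 in dura MHC II-high (0.153 without library 3), 0.216–0.279 in dura MHC II-low, 0.567–0.635 in choroid plexus, 0.178–0.274 in microglia and 0.341–0.392 in peritoneal macrophages. Of 205 called fold changes, 173 were called in every such fit.

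The labels do not say that replicate numbers mark a shared animal or day. Over all genes, deviations of same-numbered libraries correlated at -0.146 to 0.120, and in no pair of populations were all of them over 0.1. Between the dura populations all 4 were positive, at 0.0239 to 0.120, and 3 of 4 libraries correlated best with their own number. This was not particular to the dura pair. Dura MHC II-low libraries 1, 2 and 3 also correlated best with their own number in peritoneal macrophages, at 0.0496, 0.0396 and 0.0239. With replicate number as a block the 10 counts were 1, 19, 18, 18, 31, 7, 6, 35, 35 and 33, in the order of the preceding paragraph, and 6 called fold changes were lost. Those not given above were Hspa1b for choroid plexus against both dura populations and Klf2 for peritoneal macrophages against choroid plexus. Depth limits genes with low counts, such as Cyr61, Nr4a3, Fosb and Egr3 in peritoneal macrophages and Nr4a2 in microglia.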
